A study of Mus musculus with 4 samples.

Results

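Interferon-stimulated genes are the transcripts that cells switch on in response to interferons. A list of 46 such genes, given by gene symbol, was followed in leukemia stem cells (LSCs) of mice with MLL-AF9 acute myeloid leukemia. Of the 46, 42 were found among the 17104 genes of the expression table, and Igtp, Ifi47, Ifitm2 and Ifi44 were not analysed here. RNA sequencing was done on 2 libraries per genotype from sorted YFP+, c-kit+ bone marrow cells of male C57 mice, taken at week 6 of the secondary transplantation. All 4 libraries came from lineage-negative bone marrow cells of CD37 fl/fl, Cre+ donors. These cells had been transduced with a retrovirus carrying MLL-AF9 and YFP and transplanted into irradiated C57 mice. The CD37 -/- group had received tamoxifen, which activates the ubiquitous Rosa26-CreERT2 and removes the floxed exons, and the CD37 fl/fl group had received corn oil without it. The study's methods describe this dosing in mice of the primary transplantation, before sorted cells were moved to new recipients. The comparison of CD37 -/- with CD37 fl/fl is therefore also one of earlier tamoxifen with earlier corn oil. The effects of the drug and of the deletion cannot be told apart. The labels give the libraries of a genotype as independent replicates and do not say whether each came from its own mouse, so p-values measure only the spread between these libraries.

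Type I interferons bind a receptor whose kinases phosphorylate transcription factors such as STAT2. Phosphorylated STAT2 joins IRF9 in a complex that binds the interferon-stimulated response element (ISRE) in the promoters of target genes, whereas interferon gamma acts mainly at the gamma-activated sequence (GAS). The products sense, degrade or edit foreign nucleic acids, block virus entry and release, and feed back on the pathway, and many are also present at a low level in resting blood cells.

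Expression was deposited as FPKM (fragments per kilobase of gene, scaled to the depth of the library), in which the kilobases were those of the whole gene with its introns. Genes with long introns thus have low FPKM, and levels of the interferon-stimulated genes were set beside each other only after conversion to exon length. The sums of FPKM over marker lists below were not converted, so genes with long introns weigh little in them. Recovered totals were between 15139063 and 22562837 reads per library. Cd37, the deleted gene, had 56.6 and 46.8 FPKM in CD37 fl/fl, against 23.2 and 22.9 in CD37 -/-, a log2 difference of -1.12 (SE 0.24, adjusted p = 0.104 by limma with Benjamini-Hochberg adjustment). Its values were lower in both CD37 -/- libraries. Of the 6 stem and progenitor markers, Hoxa9 was between 38.8 and 47.2 FPKM with overlap, and Cd34 had at most 16 reads in any library. Kit (0.170 and 0.325 FPKM against 0.327 and 0.434 FPKM), Meis1 (0.512 and 0.573 FPKM against 0.884 and 0.851 FPKM) and Ptprc (0.766 and 0.841 FPKM against 1.78 and 2.93 FPKM) were higher in both CD37 -/- libraries, and Mef2c (1.84 and 2.17 FPKM against 1.37 and 1.38 FPKM) was lower. Kit and Ptprc were highest in CD37 -/- replicate 2, and the part of such differences in the values below was not tested.

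Most of the interferon-stimulated genes were higher in CD37 -/- LSCs than in CD37 fl/fl LSCs, and the library of CD37 -/- replicate 2 stood above the rest. Of the 42 genes, 29 (69.0%) had both CD37 -/- libraries above both CD37 fl/fl libraries, against 37.3% of all 16973 genes with a value above 0. The opposite arrangement was seen for 3 genes (Bst2, Ifi27 and Ifi35), against 17.6% of all genes. CD37 -/- replicate 2 had the highest value of the 4 libraries for 38 of the 42 genes, against 39.4% of all genes, and CD37 fl/fl replicate 2 had the lowest value for 30, against 26.4%. The full order from CD37 fl/fl replicate 2 through CD37 fl/fl replicate 1 and CD37 -/- replicate 1 to CD37 -/- replicate 2 was found for 23 of the 42 genes, against 10.1% of all genes.

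The size of the difference was unequal in the 2 CD37 -/- libraries. Divided by the CD37 fl/fl mean, FPKM had a median over the 42 genes of 1.50 in CD37 -/- replicate 1 and of 3.48 in CD37 -/- replicate 2, while the medians over all genes were 1.11 and 1.17. In CD37 -/- replicate 2 the ratio ran from 0.668 for Ifi35 to 12.8 for Usp18. This library was above CD37 -/- replicate 1 for 39 of the 42 genes, against 56.0% of all genes, and 21 of the 42 genes had at least 2 times the FPKM of replicate 1, against 11.6% of all genes. The CD37 fl/fl libraries differed as well, with a median ratio of replicate 1 to replicate 2 of 1.50 over the 42 genes. Over the genes tested below, that ratio had a median of 0.919. CD37 -/- replicate 1 lay between the CD37 fl/fl libraries for 8 genes (Stat2, Zbp1, Ifit3, Dtx3l, Trim30a, Ifitm1, Ifitm6 and Xaf1), against 28.5% of all genes.

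**Figure D1:**
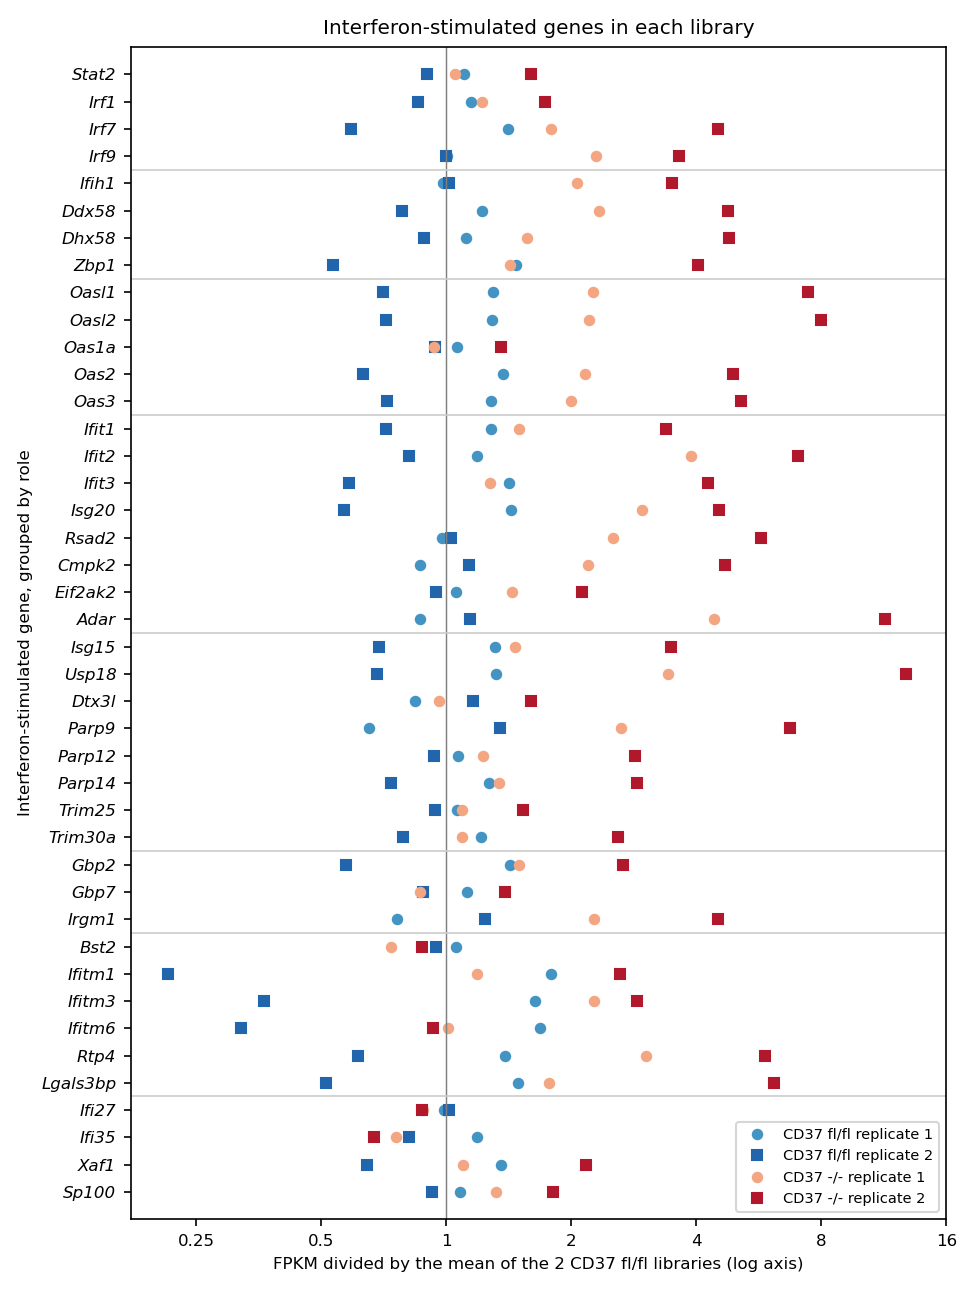
FPKM of each of the 42 interferon-stimulated genes in the 4 libraries, divided by the mean of the 2 CD37 fl/fl libraries (x axis, log scale), with genes grouped by role from the transcription factors at the top. CD37 -/- replicate 2 is the rightmost point for 38 of the 42 genes, and at Ifi27 the points of the CD37 -/- libraries lie on each other.

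Tests were run on log2(FPKM + 1), a scale that understates differences of low genes, for the 6761 genes with a mean of at least 1 FPKM. These include 27 of the 42 genes. At an unadjusted p under 0.05, 10 of the 27 were higher in CD37 -/- (Irf7, Irf9, Oasl2, Oas2, Oas3, Isg20, Cmpk2, Irgm1, Ifitm3 and Lgals3bp), against 16.1% of all tested genes, and 0 of the 27 were lower, against 7.96%. No gene had an adjusted p under 0.05 (0.0% of all tested genes by limma, adjusted after Benjamini and Hochberg), and limma-voom on the recovered reads also gave 0 of 40. The smallest adjusted p among the 27 was 0.0893, for Irf9. The median log2 difference of the 27 genes was 0.78 (all tested genes 0.11), and 24 of the 27 were above 0 (58.8% of all tested genes), within a range of -0.40 for Ifi35 to 1.71 for Ifitm3. It was 0.35 without CD37 -/- replicate 2 and 0.50 without CD37 fl/fl replicate 2, and 1.23 without CD37 -/- replicate 1. Irf9, Isg20 and Irgm1 were the 3 genes still under an unadjusted p of 0.05 when CD37 -/- replicate 2 was left out (8.13% of all tested genes were then higher), and the same 3 genes were when CD37 fl/fl replicate 2 was left out (15.1%). Of the 27, 5 genes (Dhx58, Oasl2, Oas3, Ifit3 and Cmpk2) had a CD37 fl/fl mean under 1 FPKM and entered the test only through CD37 -/-.

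**Figure D2:**
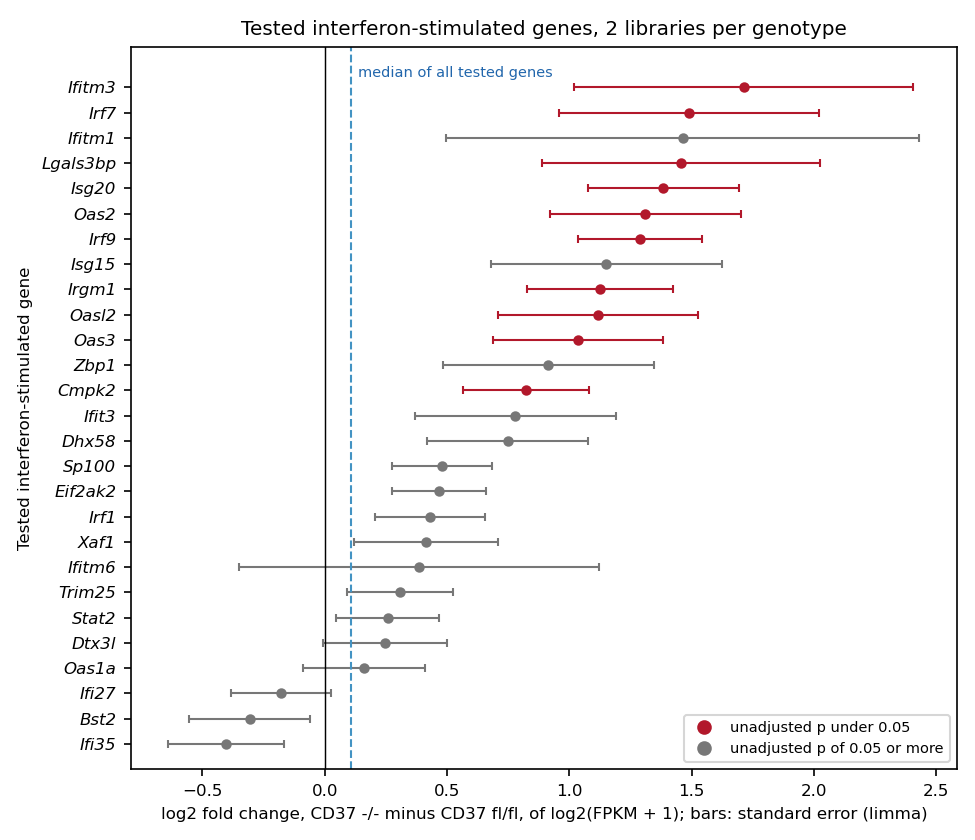
Log2 difference between CD37 -/- and CD37 fl/fl, computed on log2(FPKM + 1) by limma, for the 27 tested interferon-stimulated genes (x axis; bars are standard errors, 2 libraries per genotype). The dashed line marks the median of all tested genes at 0.11, and 24 of the 27 genes lie above 0, from Oas1a at 0.16 to Ifitm3 at 1.71.

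With every gene above 0 in the fit, 7 of the 42 were higher at an unadjusted p under 0.05 (Irf9, Ifih1, Ifit2, Isg20, Adar, Irgm1 and Rtp4), against 12.6% of the 16973 genes, and 0 were lower, against 4.59%. The lean of the libraries towards long genes, described below, stays in the recovered reads. These reads, which are not divided by gene length, gave 24 of 40 genes higher by limma-voom (19.1% of 12901 genes) and 0 lower (6.19%). Their median log2 difference was 1.50 in that fit and 0.25 over all its genes. Irf1 and Isg15 did not give whole reads in every library and were left out of it. At an adjusted p under 0.1 it held 9 of the 40 genes (Irf9, Ifih1, Ddx58, Oas2, Ifit2, Isg20, Adar, Irgm1 and Rtp4), against 8.61% of its genes.

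Summed over the 40 genes, the recovered counts came to 2189 and 1136 RPM (reads scaled to library depth) in CD37 fl/fl, against 2192 and 3545 in CD37 -/-. The first library of each genotype was therefore alike, and the sums of the genotypes overlapped. A large part of these sums came from Ifitm1, Ifitm3 and Ifitm6, which made up 969 and 172 RPM in CD37 fl/fl, against 827 and 1149 in CD37 -/-. Without these 3 genes the sums were 1220 and 964 in CD37 fl/fl, against 1365 and 2396 in CD37 -/-, so that both CD37 -/- libraries lay above both CD37 fl/fl libraries.

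**Figure D3:**
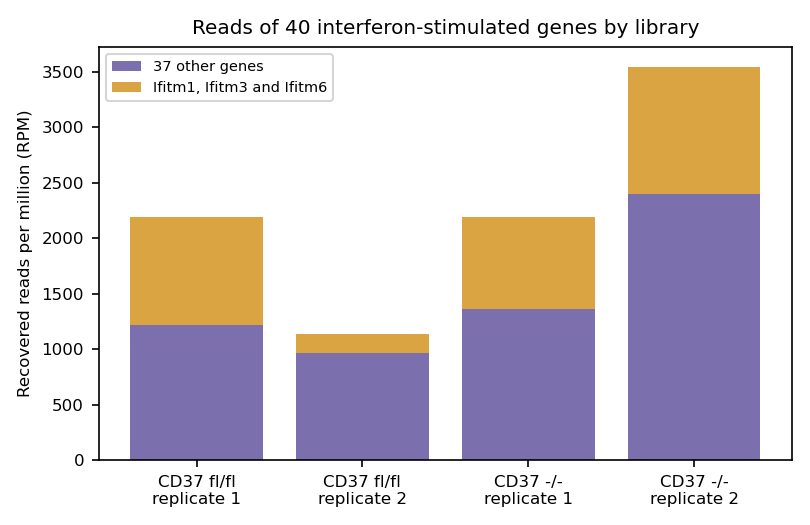
Recovered reads scaled to depth, as RPM (y axis), of 40 interferon-stimulated genes in each library, split into 3 Ifitm genes and 37 others. The 37 others take 1365 and 2396 RPM in CD37 -/- and 1220 and 964 in CD37 fl/fl, while the Ifitm genes are low in CD37 fl/fl replicate 2 alone, at 172.

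RefSeq promoters (GRCm38.p6, 250 bases before to 50 bases after the start) were matched to 34 of the 42 genes and searched on both strands for ISRE-like letters, that is GAAA, then any 2 bases, then GAAA. These letters were in promoters of 16 of the 34 genes (47.1%), against 3.99% of 27025 genes with a promoter. The GAS-like letters TTCNNNGAA were in promoters of 11 of the 34 genes (32.4%), against 9.55% of all genes. Matches overlap one another where the GAAA units are repeated, as in Isg15, whose 3 matches start at 78, 72 and 66 bases before the start. The 150 bases before the start are printed 5′ to 3′ on the gene's strand for Isg15, Irgm1, Oas3 and Rsad2, which were higher in both CD37 -/- libraries, and for Bst2, which has the letters and was lower in both. Capitals mark the ISRE-like letters, which in Rsad2 are on the opposite strand. The stretches are at chr4:156200819-156200968 (Isg15), chr11:48871421-48871570 (Irgm1), chr5:120777660-120777809 (Oas3), chr12:26456453-26456602 (Rsad2) and chr8:71537473-71537622 (Bst2), all on the minus strand.
Isg15: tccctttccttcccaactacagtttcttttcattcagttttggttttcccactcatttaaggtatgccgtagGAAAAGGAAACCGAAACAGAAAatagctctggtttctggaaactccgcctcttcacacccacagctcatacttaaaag
Irgm1: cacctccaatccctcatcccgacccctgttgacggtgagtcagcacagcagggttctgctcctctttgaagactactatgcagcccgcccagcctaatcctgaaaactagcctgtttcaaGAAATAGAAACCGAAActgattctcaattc
Oas3: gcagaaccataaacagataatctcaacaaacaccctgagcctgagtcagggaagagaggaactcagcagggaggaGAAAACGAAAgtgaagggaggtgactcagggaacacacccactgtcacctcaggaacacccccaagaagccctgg
Rsad2: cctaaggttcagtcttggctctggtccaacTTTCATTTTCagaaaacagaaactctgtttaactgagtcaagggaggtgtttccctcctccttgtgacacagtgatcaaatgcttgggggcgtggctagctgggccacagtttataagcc
Bst2: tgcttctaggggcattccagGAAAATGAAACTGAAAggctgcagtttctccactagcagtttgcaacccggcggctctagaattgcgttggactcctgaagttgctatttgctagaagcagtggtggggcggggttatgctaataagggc

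No clear difference was seen between genes with and without these letters, which was not tested. Of the 16 genes with ISRE-like letters, 10 had both CD37 -/- libraries above both CD37 fl/fl libraries, as did 13 of the 18 genes without them and 37.3% of all genes above 0. In CD37 -/- replicate 2, the median ratio to the CD37 fl/fl mean was 3.13 with the letters and 3.24 without them, and in CD37 -/- replicate 1 it was 1.48 and 1.54.

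Among the transcription factors, Irf9, the DNA-binding partner of STAT2 (chr14:55603571-55610030, GRCm38), had 3.26 and 3.24 FPKM in CD37 fl/fl, against 7.44 and 11.8 in CD37 -/-. The CD37 fl/fl libraries were nearly equal, and both CD37 -/- libraries were well above them, with a log2 difference of 1.29 (SE 0.25, adjusted p = 0.0893 by limma). Irf9 shares 123 exon bases with Rnf31 on the same strand, so reads there could come from either gene. Irf7, which amplifies interferon transcription (chr7:141262706-141266481), had 9.92 and 4.16 FPKM in CD37 fl/fl, against 12.5 and 31.7 in CD37 -/-, a log2 difference of 1.49 (SE 0.53, adjusted p = 0.173). Its lowest CD37 -/- value was close to its highest CD37 fl/fl value, and the difference was 0.95 without CD37 fl/fl replicate 2 and 0.85 without CD37 -/- replicate 2. Irf1, induced by interferon gamma, did not overlap between genotypes but differed by only 0.43 on the log2 scale (SE 0.23), and Stat2, the partner of IRF9, differed by 0.26 (SE 0.21) with overlapping groups. Without CD37 -/- replicate 2 these differences were 0.23 and 0.049, and without CD37 fl/fl replicate 2 they were 0.27 and 0.17.

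All 4 nucleic acid sensors were highest in CD37 -/- replicate 2, and 3 of them were without overlap, against 39.4% and 37.3% of all genes above 0. The RNA helicase sensors have long genes and low FPKM, so their reads are given as well. Ifih1, encoding MDA5, had 180 and 210 reads in CD37 fl/fl, against 436 and 944 in CD37 -/- (0.233 and 0.240 FPKM against 0.487 and 0.827 FPKM). Ddx58, encoding RIG-I, had 279 and 202 reads in CD37 fl/fl, against 616 and 1611 in CD37 -/- (0.505 and 0.323 FPKM against 0.963 and 1.98 FPKM). Both were above the CD37 fl/fl libraries in either CD37 -/- library, with limma-voom log2 differences of 1.44 (SE 0.38, adjusted p = 0.0902) and 1.79 (SE 0.45, adjusted p = 0.0867). Dhx58, encoding the regulatory helicase LGP2, differed by 0.75 (SE 0.33) on log2(FPKM + 1) without overlap, and by 0.26 without CD37 -/- replicate 2. Zbp1, a sensor of Z-form nucleic acids, differed by 0.91 (SE 0.43) with overlap, by 0.35 without CD37 -/- replicate 2 and by 0.53 without CD37 fl/fl replicate 2.

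The oligoadenylate synthetases make the second messenger that activates RNase L when double-stranded RNA is present. Oas2 had 2.21 and 1.01 FPKM in CD37 fl/fl, against 3.48 and 7.89 in CD37 -/-, a log2 difference of 1.31 (SE 0.39, adjusted p = 0.143 by limma). Its neighbour Oas3 had 1.04 and 0.585 FPKM in CD37 fl/fl, against 1.63 and 4.17 in CD37 -/-, a difference of 1.03 (SE 0.35, adjusted p = 0.161). Both were higher in either CD37 -/- library and highest in replicate 2, without which the differences were 0.82 for Oas2 and 0.55 for Oas3. Of the OAS-like genes, Oasl2 had 0.644 and 0.358 FPKM in CD37 fl/fl, against 1.10 and 4.00 in CD37 -/-, a difference of 1.12 (SE 0.41, adjusted p = 0.179). Oasl1, a negative regulator of Irf7 translation that lies beside it, had 83 and 51 reads in CD37 fl/fl, against 167 and 701 in CD37 -/- (0.369 and 0.201 FPKM against 0.641 and 2.11 FPKM). For this pair too, CD37 -/- replicate 2 was far above replicate 1, and the difference of Oasl2 was 0.49 without it. Oas1a had 10.6 and 9.43 FPKM in CD37 fl/fl, against 9.38 and 13.6 in CD37 -/-, with overlap and a log2 difference of 0.16 (SE 0.25). Oas1a has near-identical paralogs such as Oas1g, between which reads could be split, and its sign turned to -0.085 without CD37 -/- replicate 2.

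RNA-binding and nucleotide effectors made up the group with the highest share without overlap, at 7 of 8, against 37.3% of all genes above 0. Isg20, a 3′ exonuclease, had 1.92 and 0.761 FPKM in CD37 fl/fl, against 3.96 and 6.07 in CD37 -/-. Both CD37 -/- libraries were clearly above, with a log2 difference of 1.39 (SE 0.31, adjusted p = 0.106 by limma). Cmpk2, a mitochondrial nucleotide kinase, had 0.436 and 0.570 FPKM in CD37 fl/fl, against 1.10 and 2.36 in CD37 -/-, a difference of 0.82 (SE 0.26, adjusted p = 0.150) that was 0.49 without CD37 -/- replicate 2. Its neighbour on chromosome 12, Rsad2, encodes viperin, which makes a chain-terminating nucleotide. Rsad2 had 37 and 44 reads in CD37 fl/fl, against 111 and 320 in CD37 -/- (0.176 and 0.185 FPKM against 0.457 and 1.03 FPKM). The values of both genes were near each other in the CD37 fl/fl libraries and higher in either CD37 -/- library.

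Adar, which edits adenosine to inosine in double-stranded RNA (chr3:89715022-89753446), had one of the largest relative differences. It had 67 and 100 reads in CD37 fl/fl, against 398 and 1308 in CD37 -/- (0.114 and 0.150 FPKM against 0.584 and 1.50 FPKM), which put it at 4.42 and 11.4 times the CD37 fl/fl mean. The limma-voom log2 difference was 2.85 (SE 0.61, adjusted p = 0.0752). Adar shares 1365 of its exon bases with Chrnb2 on the other strand, and whether the counting used the strand is not given in the sources used here.

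The Ifit proteins bind viral RNA and translation factors. Ifit2 had 49 and 38 reads in CD37 fl/fl, against 186 and 429 in CD37 -/- (0.124 and 0.0853 FPKM against 0.407 and 0.737 FPKM), with a limma-voom log2 difference of 2.43 (SE 0.53, adjusted p = 0.0764). Ifit1 had 57 and 36 reads in CD37 fl/fl, against 77 and 222 in CD37 -/- (0.407 and 0.227 FPKM against 0.475 and 1.07 FPKM). Ifit2 was higher in either CD37 -/- library by a wide margin, whereas Ifit1 was well above CD37 fl/fl only in replicate 2. Ifit3 overlapped between genotypes and differed by 0.78 (SE 0.41) on log2(FPKM + 1), by 0.20 without CD37 -/- replicate 2 and by 0.50 without CD37 fl/fl replicate 2. Eif2ak2, the kinase PKR, differed by 0.47 (SE 0.19) without overlap, and by 0.29 without CD37 -/- replicate 2.

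Isg15, the ubiquitin-like modifier, had 11.4 and 5.98 FPKM in CD37 fl/fl, against 12.7 and 30.1 in CD37 -/-, a log2 difference of 1.15 (SE 0.47, adjusted p = 0.210 by limma). The values did not overlap, but CD37 -/- replicate 1 was near CD37 fl/fl replicate 1, and the difference was 0.74 without CD37 fl/fl replicate 2 and 0.56 without CD37 -/- replicate 2. Usp18, which removes ISG15 from proteins and dampens the interferon receptor, had 12 and 7 reads in CD37 fl/fl, against 36 and 172 in CD37 -/- (0.0313 and 0.0162 FPKM against 0.0811 and 0.304 FPKM). At 12.8 times the CD37 fl/fl mean, CD37 -/- replicate 2 held the largest ratio of the 42 genes, though from few reads in CD37 fl/fl, and the limma-voom log2 difference was 2.80 (SE 0.92, adjusted p = 0.121).

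The ADP-ribosyltransferases were highest in CD37 -/- replicate 2 as well, with smaller ratios than Usp18. Parp9 had 29 and 68 reads in CD37 fl/fl, against 136 and 442 in CD37 -/- (0.0554 and 0.115 FPKM against 0.225 and 0.572 FPKM). Parp12 had 226 and 223 reads in CD37 fl/fl, against 301 and 889 in CD37 -/- (0.462 and 0.403 FPKM against 0.531 and 1.23 FPKM). Parp14 had 330 and 217 reads in CD37 fl/fl, against 405 and 1111 in CD37 -/- (0.557 and 0.324 FPKM against 0.590 and 1.27 FPKM). For Parp12 and Parp14, CD37 -/- replicate 1 was only slightly above the CD37 fl/fl libraries. Dtx3l, the ubiquitin ligase that pairs with PARP9 and overlaps its gene on the other strand by 458 exon bases, had overlapping groups and a log2 difference of 0.25 (SE 0.25), which turned to -0.030 without CD37 -/- replicate 2. Trim25, a ligase for RIG-I, differed by 0.31 (SE 0.22) without overlap and by 0.11 without CD37 -/- replicate 2, and Trim30a was between 0.441 and 1.46 FPKM with overlap.

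Among the GTPases, Irgm1, an immunity-related GTPase of autophagy, had 0.826 and 1.34 FPKM in CD37 fl/fl, against 2.45 and 4.89 in CD37 -/-. Both CD37 -/- libraries were above both CD37 fl/fl libraries, with a log2 difference of 1.12 (SE 0.30, adjusted p = 0.130 by limma) that was 0.74 without CD37 -/- replicate 2. The guanylate-binding protein gene Gbp2 had 33 and 15 reads in CD37 fl/fl, against 40 and 91 in CD37 -/- (0.124 and 0.0497 FPKM against 0.130 and 0.231 FPKM), so that CD37 -/- replicate 1 and CD37 fl/fl replicate 1 were nearly equal. Gbp7 overlapped between genotypes, from 0.509 to 0.814 FPKM.

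The membrane and secreted proteins held the most abundant of the 42 genes. Per exon length, mean FPKM over the 4 libraries was 465 for Ifitm3, 240 for Ifitm6, 211 for Ifitm1 and 142 for Bst2, against a median of 6.98 over the 42 genes and 2.63 over all genes above 0. Gbp2 was lowest at 0.924. Ifitm3, which restricts virus entry at endosomes, had 244 and 54.2 FPKM in CD37 fl/fl, against 338 and 429 in CD37 -/-, a log2 difference of 1.71 (SE 0.69, adjusted p = 0.207 by limma). On log2(FPKM + 1) it was the largest difference of the 27 tested genes, and CD37 fl/fl replicate 2 lay far below the other libraries. Without that library the difference was 0.64. By limma-voom, Ifitm3 differed by 1.72 (SE 0.59) and was not the largest, with Oasl2, for example, at 2.18 (SE 0.71). Ifitm1 had 109 and 13.1 FPKM in CD37 fl/fl, against 72.3 and 160 in CD37 -/-, and Ifitm6 had 166 and 31.8 FPKM in CD37 fl/fl, against 99.97 and 91.9 in CD37 -/-. Both overlapped, and their log2 differences of 1.46 (SE 0.97) and 0.39 (SE 0.74) turned to -0.021 and -0.79 without CD37 fl/fl replicate 2. The 3 Ifitm genes lie side by side on chromosome 7 and resemble each other in sequence, so that reads could be split between them.

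CD37 fl/fl replicate 2 was also low in neutrophil genes. Summed FPKM of the 8 neutrophil markers was 18330 and 3586 in CD37 fl/fl, against 18380 and 10250 in CD37 -/-. Most of each sum came from S100a8 and S100a9, which overlapped between genotypes. The median log2 difference of the 8 markers was 1.20. Of them, 4 (Ltf, Ngp, Retnlg and Mmp9) had both CD37 -/- libraries above both CD37 fl/fl libraries, against 37.3% of all genes above 0. The opposite arrangement was seen for 0, against 17.6%. All 8 were lowest in CD37 fl/fl replicate 2, as were Ifitm1, Ifitm3 and Ifitm6. The part of neutrophil transcripts in these values was not tested.

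Lgals3bp, a secreted glycoprotein, had 3.02 and 1.04 FPKM in CD37 fl/fl, against 3.60 and 12.5 in CD37 -/-, a log2 difference of 1.46 (SE 0.57, adjusted p = 0.196 by limma). CD37 -/- replicate 1 was close to CD37 fl/fl replicate 1, and CD37 -/- replicate 2 was far above, so that without it the difference was 0.68, and without CD37 fl/fl replicate 2 it was 0.97. Rtp4, a chaperone of receptors, had 128 and 64 reads in CD37 fl/fl, against 323 and 799 in CD37 -/- (0.0889 and 0.0393 FPKM against 0.194 and 0.376 FPKM), with a limma-voom log2 difference of 2.23 (SE 0.54, adjusted p = 0.0839). Both CD37 -/- libraries were above both CD37 fl/fl libraries. Bst2, or tetherin, which holds budding virus at the cell surface, went the other way with 46.7 and 41.7 FPKM in CD37 fl/fl, against 32.6 and 38.6 FPKM in CD37 -/-, a log2 difference of -0.31 (SE 0.25; -0.19 without CD37 -/- replicate 1) that did not pass the test.

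Of the remaining genes, Ifi35 had the lowest log2 difference, -0.40 (SE 0.24; -0.16 without CD37 fl/fl replicate 1), and Ifi27 differed by -0.18 (SE 0.20), both with their CD37 -/- libraries below the CD37 fl/fl libraries and neither past the test. Rescaling every library to the same FPKM sum turned the differences of Bst2 and Ifi27 to 0.066 and 0.19. Sp100, of the nuclear bodies, differed by 0.48 (SE 0.20) without overlap, and Xaf1, a binding partner of the apoptosis inhibitor XIAP, differed by 0.41 (SE 0.29) with overlap. Without CD37 -/- replicate 2 these differences were 0.30 and 0.10, and for Xaf1 it was 0.14 without CD37 fl/fl replicate 2.

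**Figure D4:**
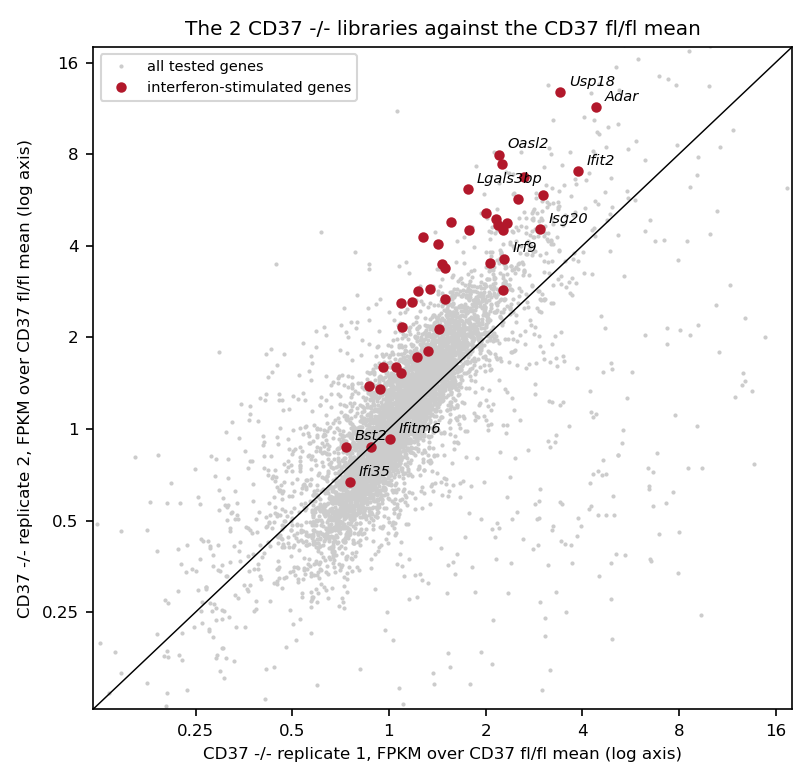
FPKM in CD37 -/- replicate 1 (x axis) and replicate 2 (y axis), each divided by the CD37 fl/fl mean, on log axes, with the 42 interferon-stimulated genes in red, the 6761 tested genes in grey and the line of equality. The red points lie above the line for 39 of the 42 genes, from Ifi35 at 0.668 to Usp18 at 12.8 on the y axis, and 63 tested genes lie outside the axes.

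CD37 -/- replicate 2 was the deepest library, and its values leaned towards long genes. Over 6737 tested genes, Spearman's rho of exon length with the log2 difference between genotypes was 0.25, and with the ratio of CD37 -/- replicate 2 to replicate 1 it was 0.33. Both are descriptions across genes of the same libraries. Over the 27 tested interferon-stimulated genes the first was -0.05 and the second 0.23. The 12 of them with exon lengths up to the median of tested genes (3309 bases) had a median log2 difference of 0.76, against -0.05 for all tested genes of that length, and the 15 longer ones had 0.82, against 0.21.

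Markers of other blood cells were read beside these values, and in bulk RNA more cells of a type and more RNA per cell cannot be told apart. Of 8 markers of plasmacytoid dendritic cells, which make much interferon, 6 were in the table, with summed FPKM of 57.1 and 46.1 in CD37 fl/fl, against 45.8 and 71.0 in CD37 -/-. Nearly all of that sum came from Bst2 and Irf7, which are among the 42 genes. The defining marker Siglech had 2 and 2 reads in CD37 fl/fl, against 2 and 18 in CD37 -/-. Tcf4 went the other way, with 327 and 882 reads in CD37 fl/fl, against 86 and 199 in CD37 -/-. Ly6d (7 and 3 reads against 17 and 16) was higher in both CD37 -/- libraries, and Pacsin1 (28 and 10 reads against 6 and 21) overlapped. The 9 monocyte and macrophage markers summed to 333 and 234 FPKM in CD37 fl/fl, against 255 and 320 FPKM in CD37 -/-. These sums overlapped between genotypes and were higher in replicate 1 of CD37 fl/fl and in replicate 2 of CD37 -/-, as were most of the interferon-stimulated genes. Most of each sum came from Ly6c2 (166 and 149 FPKM against 196 and 201) and Cd68 (135 and 75.7 FPKM against 47.7 and 94.1). Of the 9, 4 were highest in CD37 -/- replicate 2, against 39.4% of all genes above 0. Ly6c2 and Vcam1 were higher in both CD37 -/- libraries (37.3% of all genes), and 0 of the 9 were lower in both (17.6%). Erythroid markers (7 of 8 in the table) summed to 61.0 and 5.17 FPKM in CD37 fl/fl, against 576 and 143 FPKM in CD37 -/-, highest in CD37 -/- replicate 1. B cell markers (5 of 6) were between 6.83 and 15.6 FPKM and T and NK cell markers (4 of 8) between 40.2 and 118 FPKM, both lower in CD37 -/-. Most of these 2 sums came from Cd79b and Nkg7, while Cd3g had at most 9 reads in any library. The part of these cells in the interferon-stimulated genes was not tested.

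The tested genes of the pathway upstream had a median near that of all tested genes. Of 42 listed receptors, kinases, feedback inhibitors, interferons and regulators outside the 42 genes, 31 were in the table and 19 were tested, with a median log2 difference of 0.11, the same as for all tested genes to 2 decimals. Of the 31, 15 had both CD37 -/- libraries above both CD37 fl/fl libraries and 4 had both below, against 37.3% and 17.6% of all genes above 0. CD37 -/- replicate 2 was highest for 23 of the 31, against 39.4%. The 9 listed interferon genes were not analysed here. At an unadjusted p under 0.05, 4 of the 19 were higher in CD37 -/- (Tmem173, Irf2bp2, Tbk1 and Ptpn11) and 1 was lower (Irf3), beside the 16.1% and 7.96% of all tested genes. Tmem173, encoding STING, the adaptor of cytosolic DNA sensing, had 21.1 and 4.02 FPKM in CD37 fl/fl, against 38.2 and 41.2 in CD37 -/- (log2 difference 1.95, SE 0.67, adjusted p = 0.164 by limma), and without CD37 fl/fl replicate 2 the difference was 0.88. Tbk1, its kinase, had 0.844 and 1.05 FPKM in CD37 fl/fl, against 1.75 and 2.17 in CD37 -/- (0.60, SE 0.18, adjusted p = 0.141). Its CD37 fl/fl mean was under 1 FPKM, so that it entered the test only through CD37 -/-.

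Irf3, the factor that TBK1 phosphorylates, had 27.3 and 26.7 FPKM in CD37 fl/fl, against 18.5 and 14.3 in CD37 -/- (log2 difference -0.69, SE 0.24, adjusted p = 0.168 by limma). Irf2bp2, a corepressor that binds IRF2, differed by 0.82 (SE 0.23, adjusted p = 0.136), Ptpn11, encoding the phosphatase SHP-2, by 0.55 (SE 0.21, adjusted p = 0.188) and Socs1, a feedback inhibitor, by 0.40 (SE 0.19, adjusted p = 0.242). None of these genes overlapped between the genotypes. Of the 6 listed receptor chains, 4 were tested, with a median log2 difference of 0.10. Among these, Ifnar1 and Ifngr1 differed by 0.05 (SE 0.26) and 0.09 (SE 0.22), less than their standard errors. All 6 chains were highest in CD37 -/- replicate 2, against 39.4% of all genes above 0. Both CD37 -/- libraries were above both CD37 fl/fl libraries for 3 of the 6 (37.3% of all genes) and below them for 0 (17.6%).

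A second list held 67 other interferon-induced genes, of which 55 were in the table and 26 were tested. Of the 55, 18 had both CD37 -/- libraries above both CD37 fl/fl libraries and 9 had both below, against 37.3% and 17.6% of all genes above 0. CD37 -/- replicate 2 was highest for 36 of the 55, against 39.4%. The 26 tested genes, without those averaging under 1 FPKM, had a median log2 difference of -0.03. At an unadjusted p under 0.05 by limma, 4 were higher (Gbp3, Helz2, Znfx1 and Trim21), beside the same 16.1%. In the other direction, 5 were lower (Psme2, Psme1, Tapbp, Ly6e and Trim12c), beside 7.96%. Of the 4 higher genes, Helz2 and Znfx1 had a CD37 fl/fl mean under 1 FPKM and entered the test only through CD37 -/-. Gbp3, a guanylate-binding protein gene, had 0.708 and 1.42 FPKM in CD37 fl/fl, against 3.13 and 3.03 in CD37 -/- (log2 difference 1.00, SE 0.22, adjusted p = 0.105 by limma). Helz2, a helicase-containing coactivator, had 0.810 and 1.14 FPKM in CD37 fl/fl, against 2.42 and 5.61 in CD37 -/- (1.27, SE 0.33, adjusted p = 0.125), with a difference of 0.80 without CD37 -/- replicate 2. Gbp3 was about equally high in both CD37 -/- libraries, and Helz2 was highest in replicate 2.

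Znfx1, an RNA-binding helicase, and Trim21, an antibody receptor and ubiquitin ligase, differed by 0.87 (SE 0.26, adjusted p = 0.144 by limma) and 0.64 (SE 0.19, adjusted p = 0.146), and Znfx1 by 0.53 without CD37 -/- replicate 2. On the lower side, the proteasome activator subunits Psme1 and Psme2 differed by -0.79 (SE 0.27, adjusted p = 0.165) and -0.87 (SE 0.24, adjusted p = 0.135), and their values did not overlap between genotypes. Tapbp, the tapasin of peptide loading, differed by -0.67 (SE 0.25, adjusted p = 0.188), and by -0.44 without CD37 fl/fl replicate 1.

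**Figure D5:**
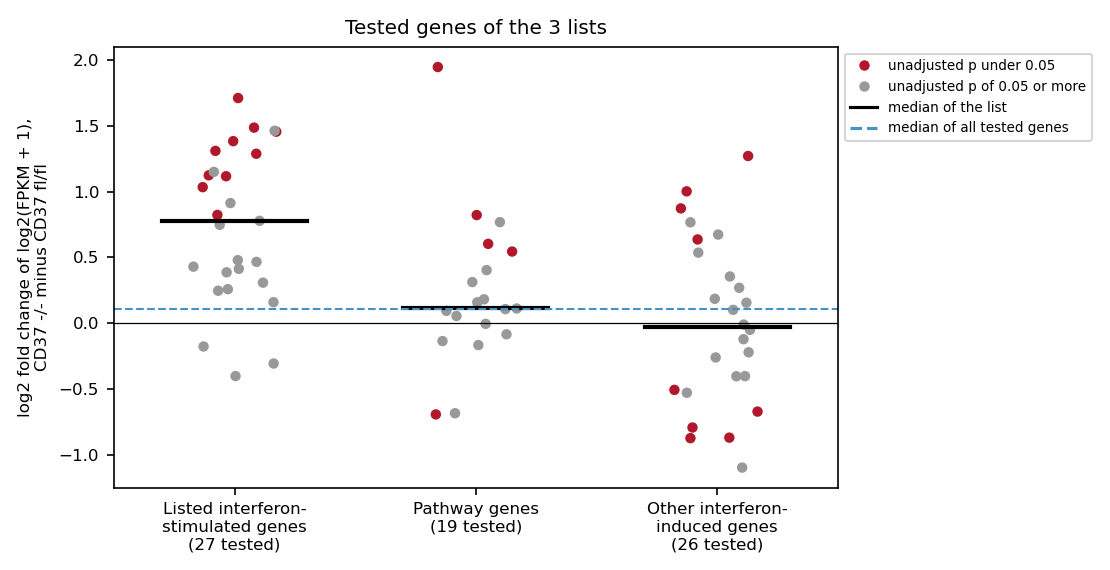
Log2 difference between CD37 -/- and CD37 fl/fl on log2(FPKM + 1) (y axis) for the tested genes of the 3 lists, with each list's median as a black bar and genes spread sideways at random. The medians are 0.78 for the 27 interferon-stimulated genes, 0.11 for the 19 pathway genes and -0.03 for the 26 other interferon-induced genes, beside 0.11 for all tested genes (dashed). Genes averaging under 1 FPKM were not tested and are not shown.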

How the data were processed

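RNA-seq values of 4 LSC libraries (2 CD37 fl/fl and 2 CD37 -/-, labelled WT and KO in the sample titles) were analysed. The authors deposited FPKM values, on a linear scale in one column for each library. The submitters' processing notes name fastp 0.20.1, STAR 2.7.7a, featureCounts 2.0.0 and edgeR, and the study's methods name limma in R. These notes name a later mouse build than GRCm38, but the values gave whole reads with gene spans of GENCODE M21 on GRCm38. In each library at least 98.9% of low values were whole within a tolerance of 0.05, which chance meets for 10% of values, so M21 names and coordinates were used (17045 of 17104 identifiers matched). The counting strand is not given in the sources used here. There were 0 columns of other samples.

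Differences were taken on log2(FPKM + 1) for genes averaging at least 1 FPKM, using limma 3.58.1 (lmFit, then eBayes with trend; R 4.3.3 and statmod 1.5.0), genotype as the only term and Benjamini-Hochberg adjustment over all 6761 genes. This code was tested on simulated data. Tables and figures used Python 3.11.15, pandas 2.3.3, numpy 2.4.6 and matplotlib 3.10.9. The list of interferon-stimulated genes, the pathway, interferon-induced and marker lists and the tests were chosen with earlier results of these data known. Genes given with the value in every library are those with an unadjusted p under 0.05 and, where not tested, those without overlap and at least 10 reads in each library of the higher genotype. Of the pathway and interferon-induced lists, the 6 genes with the smallest p are named. Isg15, Oas1a, Ifitm1, Ifitm6, Bst2, Ifnar1, Ifngr1 and Tapbp were described further after their values were seen. No set test was run.

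Alternatives were a pseudocount of 0.1, all genes above 0 with each pseudocount, quantile normalization, rescaling to equal FPKM sums as in TPM, FPKM per exon length, limma-voom on recovered reads (mean of at least 10), robust eBayes, the replicate number as a block, and leaving out each library. For named genes outside the list of interferon-stimulated genes, and for those not tested by the first fit, the alternatives were added after seeing the data. Some genes of the pathway and marker lists are counted in their lists but not reported here by name.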

Additional observations from a re-analysis of the deposited data

How the results depend on the processing

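The count of interferon-stimulated genes higher at an unadjusted p under 0.05, 10 of 27, was 5 with quantile normalization, 6 with robust eBayes, 16 with TPM rescaling, 22 of 40 with exon length and 24 of 40 with limma-voom, where more genes entered the fit, and between 3 and 14 when 1 library was left out. The count of lower genes was 0 except for 1 (Ifi35) without CD37 fl/fl replicate 2. The median log2 difference, 0.78, was 1.49 with TPM rescaling, which moved the median of all tested genes from 0.11 to 0.49 (quantile normalization moved it to -0.02), and 1.50 with limma-voom. For the pathway and other interferon-induced genes together, the 8 higher ones became 18 with exon length and 24 with limma-voom, and between 2 and 10 without 1 library. The 6 lower ones became 0 with TPM rescaling, beside 11 higher, and between 0 and 5 without 1 library. Of 581 log2 differences of named genes under the alternatives, 572 kept their sign. The 9 others were Bst2 (0.066) and Ifi27 (0.19) with TPM rescaling, Ifnar1 (-0.13 with quantile normalization, and between -0.25 and 0.36 without 1 library), Ifitm1 (-0.021, up to 2.95 without another library) and Ifitm6 (-0.79, up to 1.56) without CD37 fl/fl replicate 2, and Oas1a (-0.085, up to 0.40) and Dtx3l (-0.030, up to 0.52) without CD37 -/- replicate 2. Beyond fewer or more genes or libraries in a fit, the cause was not tested. Samples with the same replicate number had deviations that correlated at -0.04 over the tested genes. The labels do not say whether such samples share a batch, and 1 correlation over all these genes cannot exclude it. With the replicate number as a block, 10 of 27 genes were higher and 0 lower, and 9 and 4 of the pathway and other interferon-induced genes. No alternative gave an adjusted p under 0.05 for any of the tested interferon-stimulated genes. With 2 libraries per genotype and as few as 7 reads per gene, small differences were not detectable at this depth.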
